A study of Saccharomyces cerevisiae with 16 samples.

Results

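DNA Pol2 occupancy was compared between cells labelled as lacking the helicase Rrm3 and wild type cells, along the whole budding yeast genome. Pol2 is the catalytic subunit of DNA polymerase epsilon, which synthesises the leading strand and travels with the replication fork. The comparison used 10 of the 16 arrays in the series, 6 titled as DNA Pol2 with rrm3 delete and 4 titled as DNA Pol2 without a deletion. The value compared was the difference, rrm3 delete minus wild type, in log2 immunoprecipitate (IP) over input for each arrayed feature, with dye orientation as a covariate.

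All cells were haploid W303a Saccharomyces cerevisiae in which Pol2 carried the 13MYC tag, so the wild type arrays are wild type for RRM3 but tagged at POL2 like the others. Cultures were asynchronous in YEPD rich medium, were fixed and sonicated, and a MYC antibody recovered the Pol2-bound DNA, which was labelled with one dye and the input DNA with the other. Each arrayed spot was a PCR product that covered an open reading frame (ORF), another annotated element or an intergenic region. A population of unsynchronised cells holds forks at all positions, so a feature that forks leave slowly gains Pol2 signal relative to input.

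Rrm3 is a DNA helicase of the Pif1 family that moves with the fork and helps it past tightly bound protein complexes. In budding yeast it is known from earlier genetics for its part at tRNA genes, the ribosomal DNA, telomeres and the silent mating type loci, where forks slow when it is missing. tRNA genes are short and transcribed by RNA polymerase III, whose initiation factors stay bound to the gene between rounds of transcription.

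Some arrays stood apart from their labels. The RRM3 probe, YHR031C, checks the deletion: its input signal lay at percentiles 1.67 to 12.1 of all spots on 5 of the 6 rrm3 delete arrays, against percentiles 33.0 to 90.5 on the 4 wild type arrays. On array 239, labelled rrm3 delete, it lay at percentile 50.2, so the group is called the arrays labelled rrm3 delete, or delete-labelled arrays, throughout. RRM3 has 1 spot on the array, and that spot carried a bad-spot mark on arrays 040 and 136. Array 136 is labelled with the IP in Cy5, but the deposited values run the other way from its scanner ratio. As deposited it correlated with the other 9 Pol2 arrays at r = 0.15 to 0.54, and as labelled at r = -0.54 to -0.15, so its direction is not settled by the labels. It was used as deposited and counted with the dye-swapped arrays throughout, although its label is not a dye swap, and counts with the sign turned are given with the results. On arrays 136 and 182, 49.7% and 54.0% of spots were marked bad, and features missing there were fitted on the other arrays. For array 086, a wild type array, the label on extraction mentions an H3K36me2 antibody as well as the MYC one. The study names at least 3 biological replicates and a technical dye swap without saying which arrays share an extract, so the p-values measure the spread between arrays and part of it may be technical.

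Nearly all calls were in one direction. Of 12465 features tested, 350 were higher on the arrays labelled rrm3 delete and 5 were lower at an adjusted p under 0.05 (limma with Benjamini-Hochberg adjustment), which is 2.81% and 0.0401% of those tested. At an unadjusted p under 0.05 the counts were 1082 higher and 573 lower. The 350 features fell mostly into 3 classes. tRNA genes and the regions named after them made up 34 and 69, chromosome arm ends made up 45 regions, 28 ORFs and 2 telomere features, and 55 were inner ORFs and 81 inner regions, of which 19 and 54 lay next to a tRNA gene. The remaining 36 were 10 long terminal repeats (LTRs) or Ty elements, 21 regions named after them, 2 ribosomal DNA features, 1 small nucleolar RNA gene and 2 others.

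On 305 of the 350 higher features every array labelled rrm3 delete lay above every wild type array, a pattern that 4.8% of all tested features showed. The opposite pattern, every delete-labelled array below every wild type array, was seen at 1.7%. The calls come from the same arrays. A test of the difference between orientations called 1 feature, 0.00802% of those tested. With array 136 turned to its labelled direction 212 features were higher and none lower, of which 203 were among the 350. Without array 239 there were 289 higher and 10 lower features, and without array 086 there were 188 and 5. Leaving out wild type array 039 gave 165 higher features, and leaving out wild type array 230 gave 200.

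At the 350 features the log2 IP signal was higher by a median of 0.61 on the arrays labelled rrm3 delete, against 0.01 over all tested features, and the log2 input signal was lower by a median of -0.19, against 0.00. Input was lower at 243 of the 350, beside 6202 of all 12465. The 350 were chosen for a higher ratio of IP to input, so a higher IP and a lower input there follow in part from that choice. Of 12476 features tested on the input signal, limma called none and 321 had an unadjusted p under 0.05. The RRM3 probe was also missed there (difference -2.58, adjusted p = 0.999), so that count does not show that the input was alike. The part of the input in the ratio was not tested.

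**Figure D1:**
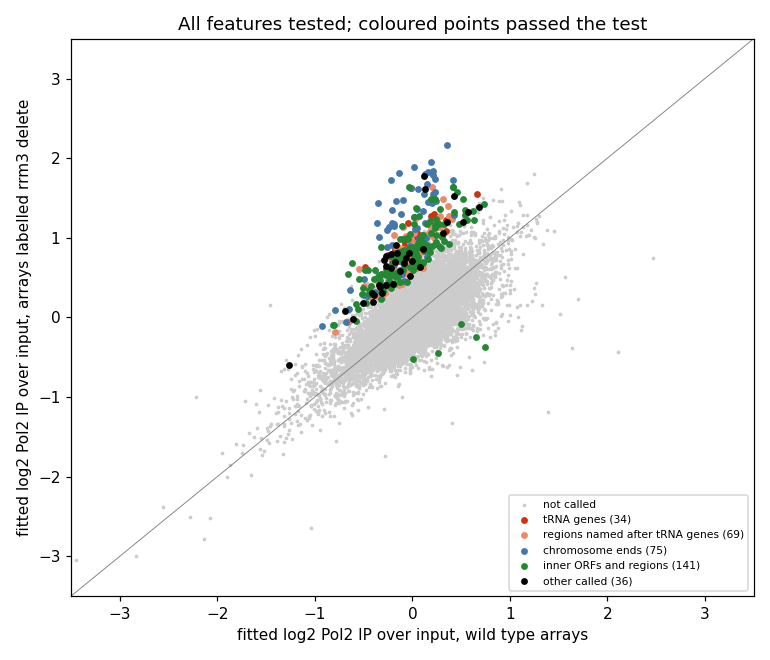
Fitted log2 Pol2 IP over input on the arrays labelled rrm3 delete (vertical axis) against wild type arrays (horizontal axis) for the 12465 features tested, with the line of equal values in grey. The 350 features called higher lie above the line in every class, and the 5 called lower are inner features below it.

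tRNA genes had the largest share of called features among the lists. Of 42 tRNA gene features on the array 41 were measured on enough arrays, and 34 of these (82.9%) rose, against 2.81% of all features. None was lower, all 41 differences were above 0, and 39 of the 41 had every delete-labelled array above every wild type array, against 4.8% of features. The median difference was 0.91, with a range from 0.44 to 1.64, beside a median of -0.00 over all features. TI(AAU)P2 had too few values to be tested. The RefSeq table used below holds 275 nuclear tRNA genes, so most had no feature of their own. Whether a spot also reports on other copies of its anticodon family was not tested.

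The level on single arrays shows how tight this group was. The median of the 41 features lay between -0.11 and 0.03 on the 4 wild type arrays and between 0.80 and 0.97 on the 6 delete-labelled arrays. In wild type cells tRNA genes lay near the level of the median feature, and the 2 groups of arrays did not overlap, array 239 included. Within the forward arrays the median difference was 0.94 over 39 features, and within the dye-swapped arrays, 136 among them, it was 0.84 over the 19 features that could be fitted there. The input signal of the list differed by a median of -0.18.

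**Figure D2:**
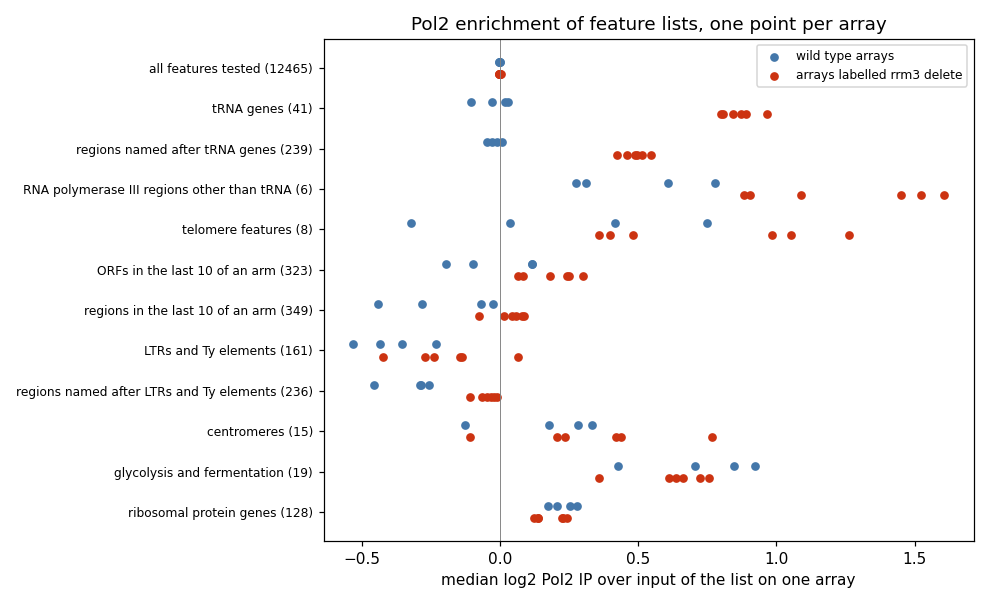
Median log2 Pol2 IP over input of each feature list on one array (horizontal axis), with one point per array and the number of tested features in brackets. The tRNA gene medians lie between -0.11 and 0.03 on wild type arrays (blue) and between 0.80 and 0.97 on arrays labelled rrm3 delete (red), while glycolytic and ribosomal protein genes overlap.

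The largest tRNA change was at TV(CAC)D, a valine tRNA gene. Its log2 IP over input was 0.23, 0.01, -0.23 and -0.09 on wild type arrays 039, 086, 136 and 230. On the 6 delete-labelled arrays it ran from 1.33 through a median of 1.60 to 2.04. The groups did not overlap, and the highest of these values was on array 239. The difference was 1.64 ± 0.14 (SE, n = 4 and 6), a 3.12-fold change, with limma's adjusted p = 0.000375.

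TH(GUG)M, for histidine tRNA, was below the median feature in wild type cells at -0.44, -0.56 and -0.46 on arrays 039, 136 and 230, with no value on 086. It reached 0.56 to 0.72 on the 5 delete-labelled arrays that measured it, with a median of 0.64. No array of one group overlapped the other, and the difference was 1.13 ± 0.14 (SE, limma adjusted p = 0.00248). With array 136 as labelled the adjusted p was 0.24. TG(CCC)D, for glycine tRNA, differed by 1.23 ± 0.25 (SE, adjusted p = 0.0284), with the delete-labelled arrays spread from 0.59 to 1.68. Its call was lost with 136 as labelled (adjusted p = 0.051) and without any one of 6 arrays, among them 239 (0.066), 086 (0.075) and 230 (0.22).

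Starting levels differed between tRNA genes. TV(UAC)B, chosen here after its values were seen, was already enriched in wild type cells at 0.57 to 0.79 on all 4 arrays. It rose by 0.89 ± 0.13 (SE, limma adjusted p = 0.00327) to between 1.27 and 1.74 on the 6 delete-labelled arrays, which is among the highest levels of any tRNA gene though its difference is close to the list's median. The groups were again separate.

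The 7 tRNA genes that missed the threshold had differences from 0.44 to 0.82. TT(CGU)K, for threonine tRNA, was the most variable, with wild type values of 0.08, -0.39 and 0.59 and delete-labelled values of -0.12 to 1.49. Its groups overlapped and the difference was 0.47 ± 0.24 (SE, limma adjusted p = 0.45). TG(UCC)O, with the smallest difference, 0.44 ± 0.17 (SE, adjusted p = 0.29), lay between 0.37 and 0.94 on the delete-labelled arrays. TR(ACG)O missed with a difference of 0.82 ± 0.21 (SE, adjusted p = 0.087).

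**Figure D3:**
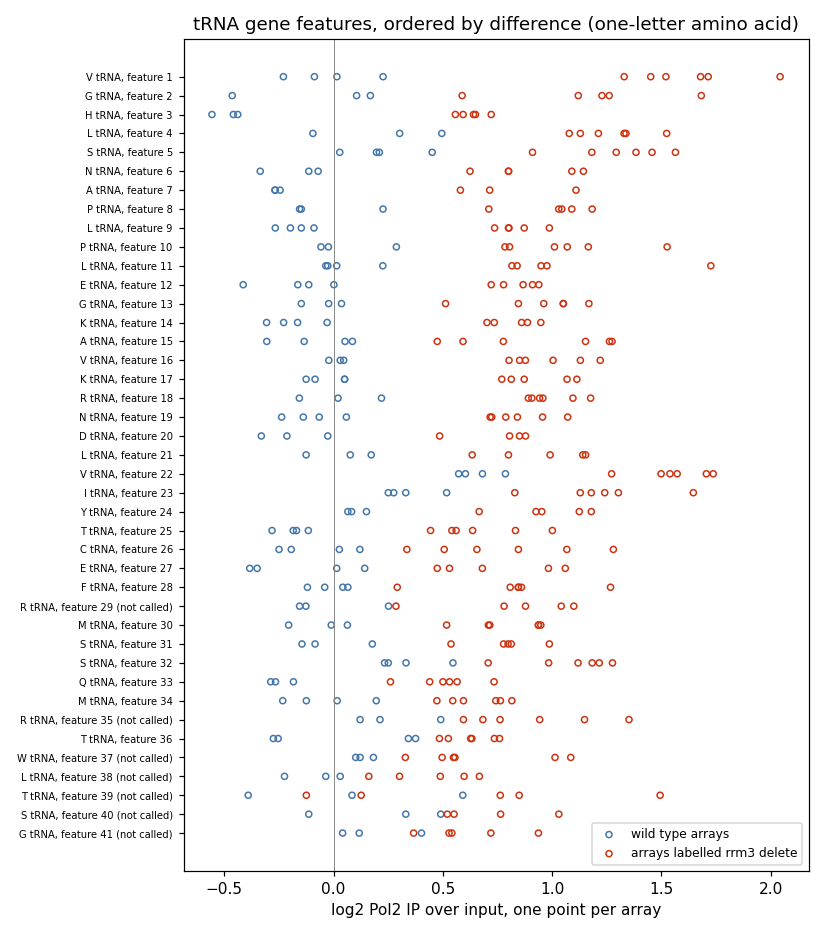
Log2 Pol2 IP over input (horizontal axis) of the 41 tested tRNA gene features, one row per feature with the one-letter code of its amino acid, ordered by difference, and one point per array. In 39 rows every point of the arrays labelled rrm3 delete (red) lies to the right of every wild type point (blue).

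The regions named after tRNA genes were also higher, with a smaller median. The files do not say on which side of the gene such a region lies. Of 250 on the array 239 were tested, 69 (28.9%) rose and none was lower, while 220 differences were above 0. The median difference was 0.48, with array medians of -0.05 to 0.01 in wild type and 0.42 to 0.55 on the delete-labelled arrays. At 101 regions (42.3%) the groups were separate with the delete-labelled arrays above, against 4.8% of all features.

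ITD(GUC)B, named after an aspartate tRNA gene, had the largest difference of these regions. It stood at 0.49, 0.29, 0.07 and -0.03 on the wild type arrays and ran from 1.32 to 2.06 with a median of 1.63 on the 5 delete-labelled arrays that measured it. The groups did not overlap, and the difference was 1.43 ± 0.14 (SE, limma adjusted p = 0.000945). ITA(UGC)A differed by 1.23 ± 0.17 (SE, adjusted p = 0.00434) and ITP(UGG)L-0 by 1.22 ± 0.12 (SE, adjusted p = 0.000879), the latter from between -0.36 and -0.06 to between 0.81 and 1.26.

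All 20 amino acids had regions with a positive median, from 0.26 for the 3 cysteine regions to 0.72 for the 5 histidine regions. Lysine regions were called at 8 of 19 (median 0.65), isoleucine at 6 of 12 (0.65), and threonine at 0 of 14 (0.40). Differences between amino acids were not tested. Across 36 anticodon families, the difference at the gene and the median difference of the family's regions had Pearson's r = 0.41 and Spearman's rho = 0.51. Those values share the same arrays, and families have 1 to 15 regions. The gene exceeded the median of its regions in 34 of the 36 families.

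The neighbourhood of tRNA genes was then read from the gene order of the RefSeq R64 table, which holds 275 nuclear tRNA genes. That table was used for order only, since the files name no genome build. Among inner ORFs, those beyond the last 10 places of an arm, 19 of the 430 next to a tRNA gene rose (4.42%), against 1 of 368 at 2 places (0.272%) and 22 of 2374 at 11 or more places (0.927%). Their median differences were 0.07, -0.08 and 0.00. Inner regions also had their largest share at the first place. Of those whose naming ORF is next to a tRNA gene 54 of 395 rose (13.7%, median 0.15), against 3 of 340 at 2 places (0.882%, median -0.07) and 13 of 2133 at 11 or more (0.609%, median -0.02). The share called was above the 2.81% of all features only at the first place.

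**Figure D4:**
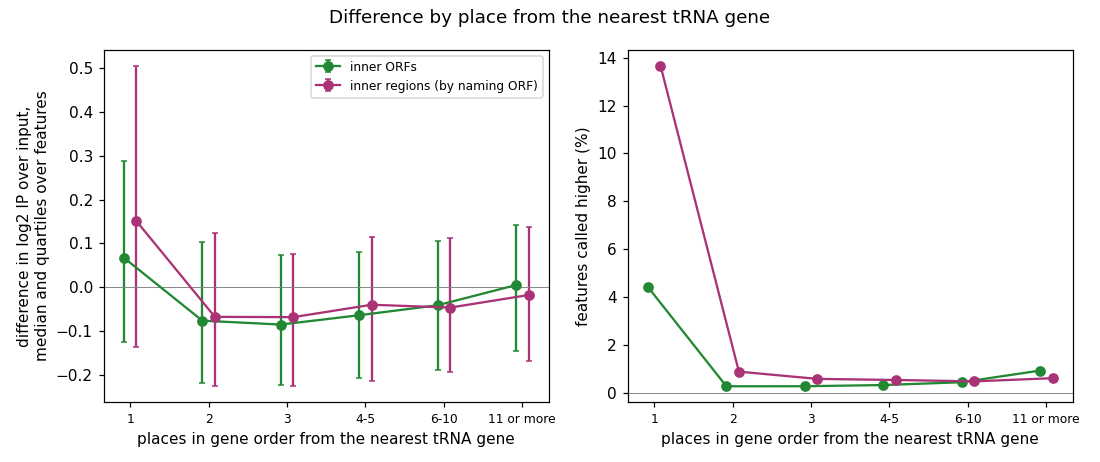
Difference in log2 Pol2 IP over input (left, median and quartiles over features) and percent of features called higher (right) for inner ORFs and inner regions, by places in gene order from the nearest tRNA gene. The first place holds 4.42% and 13.7% called features, and all later places are below 1%.

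Inner ORFs called next to a tRNA gene included PFS1, a gene of spore formation, and JJJ2, which encodes a J-domain protein, named after their values were seen. PFS1 (YHR185C) rose by 1.02 ± 0.17 (SE, limma adjusted p = 0.00838) and JJJ2 (YJL162C) by 0.97 ± 0.15 (SE, adjusted p = 0.00441). HEM15, for the haem-making ferrochelatase, and KEX1, for a prohormone-processing carboxypeptidase, were also called next to a tRNA gene, at 0.65 and 0.72. The call of KEX1 was lost without any one of 8 arrays (adjusted p = 0.0562 to 0.13).

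Other RNA polymerase III genes were measured by few features. The genes RDN5-1 for 5S ribosomal RNA, SNR6 for U6 and SNR52 for a small nucleolar RNA had differences of 0.57, 0.49 and 0.47, and none of the 3 passed (limma, 2 with an unadjusted p under 0.05). Of 6 tested regions named after such genes, 4 rose (66.7%, against 2.81% of all features) and all 6 differences were above 0, with a median of 0.71. Of these 4, IRDN5-2 and IRDN5-3 are also the 2 ribosomal DNA calls given below, so the 2 counts are not separate. The calls were 2 of 6 with array 136 as labelled, 2 without array 039 and 2 without array 230. This list of regions was added after the data were seen.

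IRPR1, named after the gene of the RNA subunit of RNase P, stood at 0.54, -0.08, 0.53 and 0.69 on the wild type arrays and at 1.22 to 1.82 on 5 delete-labelled arrays. The groups did not overlap, and the difference was 1.10 ± 0.19 (SE, limma adjusted p = 0.0104). Its input signal was higher by 2.65 on the delete-labelled arrays. ISNR6 went from between 0.22 and 0.50 on 3 wild type arrays to between 0.88 and 1.20 on 6 delete-labelled arrays, a difference of 0.75 ± 0.13 (SE, adjusted p = 0.0107), which did not pass without array 039 (0.0715) or 230 (0.0745). ISCR1, beside the gene of the signal recognition particle RNA, differed by 0.59 ± 0.19 (SE, adjusted p = 0.18) and its groups overlapped.

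The ribosomal DNA changed at 2 of 17 features (11.8%, against 2.81% of all features higher), both regions named after 5S genes. IRDN5-2 ran from 0.09 to 1.15 on wild type arrays and from 0.84 to 1.69 on delete-labelled arrays, so the groups overlapped, and the dye-adjusted difference was 0.75 ± 0.13 (SE, limma adjusted p = 0.00871). IRDN5-3 differed by 0.67 ± 0.15 (SE, adjusted p = 0.039). With array 136 as labelled both missed the threshold, at adjusted p = 0.064 and 0.073, and leaving out any one of the arrays other than 136 also ended the call of IRDN5-3 (adjusted p up to 0.19). The list's median difference was 0.19, and its array medians overlapped widely, from 0.02 to 1.18 in wild type and from 0.09 to 1.42 on the delete-labelled arrays. The repeated units share one set of spots, and no feature is named for the fork barrier between them.

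Chromosome ends held the largest differences among called features. Counting 10 ORF places in from each arm end, 28 of 323 ORFs (8.67%) and 45 of 349 regions (12.9%) rose, against 2.81% of all features, and none was lower. Their median differences were 0.19 and 0.16, well under those of tRNA genes, so few features carried large changes. Array medians overlapped for both lists, at -0.19 to 0.12 against 0.06 to 0.30 for ORFs and -0.44 to -0.03 against -0.08 to 0.09 for regions. The called features were spread over the genome: 28 of the 32 arms had at least 1, and the left arm of chromosome X had the most, 5. The right arms of chromosomes II, III and VII and the left arm of VII had none.

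The region IYAL069W, at the left end of chromosome I, had the largest called difference. Its values were 0.60, 0.31, -0.97 and -0.48 on wild type arrays 039, 086, 136 and 230, and 1.33 to 2.47 with a median of 1.75 on 5 delete-labelled arrays. Wild type arrays 136 and 230 were lower than 039 and 086, and every delete-labelled array was higher than all 4. The difference was 1.95 ± 0.21 (SE, n = 4 and 5), or 3.85-fold, with limma's adjusted p = 0.00120. The neighbouring ORF YAL069W rose by 1.67 ± 0.17 (SE, adjusted p = 0.000945).

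IYLL065W, near the left end of chromosome XII, went from between -0.79 and 0.18 to between 1.36 and 2.11 and differed by 1.94 ± 0.16 (SE, limma adjusted p = 0.000493). IYPL283C-1, on the left arm of chromosome XVI, was measured on all 10 arrays. It stood at 0.55, 0.25, -0.54 and -0.19 in wild type and at 1.29 to 2.39 with a median of 1.99 on the delete-labelled arrays, a difference of 1.87 ± 0.14 (SE, adjusted p = 0.000136) with no overlap. YDR543C, near the right end of chromosome IV, rose by 1.76 ± 0.19 (SE, adjusted p = 0.00120) and YMR326C on the right arm of chromosome XIII by 1.64 ± 0.24 (SE, adjusted p = 0.00528).

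Some of these ends also had a lower input signal, none past the input test that also missed RRM3. IYLR461W-0 differed by 1.81 ± 0.16 (SE, limma adjusted p = 0.00115), with log2 ratios of 0.36 to 0.38 on 3 wild type arrays and 2.08 to 2.34 on 4 delete-labelled arrays, while its input signal was lower by -2.35 on the delete-labelled arrays. IYDR543C differed by 1.66 ± 0.21 (SE, adjusted p = 0.00225) with an input signal lower by -1.93, and IYNR076W by 1.79 ± 0.22 (SE, adjusted p = 0.00225) with an input lower by -0.65. Neither input difference nor the sequence that chromosome ends share was tested for its part in these values.

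The share called fell with distance from the end. Among ORFs, 7 of 31 in the first place rose (22.6%, median 0.39), 7 of 164 in places 6 to 10 (4.27%, median 0.11) and 42 of 4773 beyond place 40 (0.880%, median -0.03). Among regions 7 of 22 rose in the first place (31.8%, median 0.46), 17 of 72 in places 4 to 5 (23.6%, median 0.20) and 66 of 4190 beyond place 40 (1.58%, median -0.03). The percentages for regions did not fall evenly, with 12.1% in places 2 to 3.

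**Figure D5:**
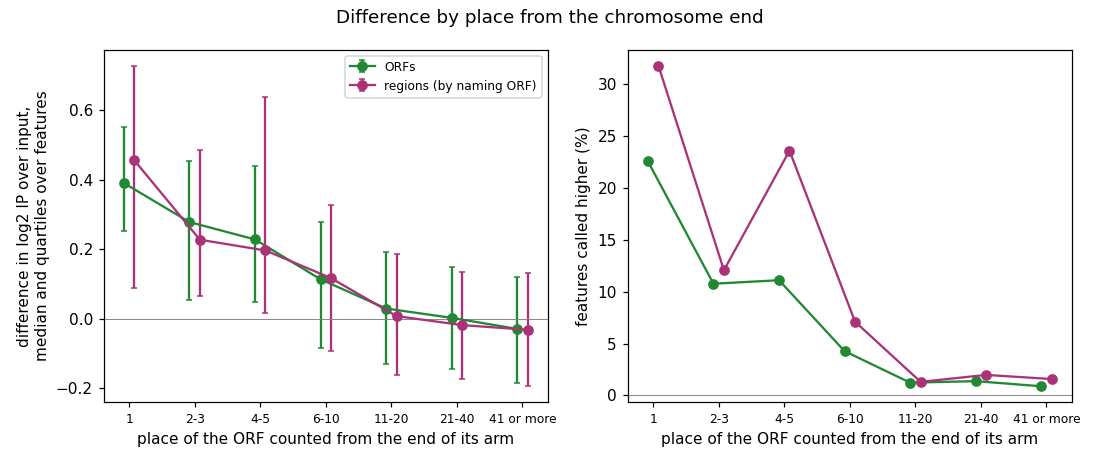
Difference in log2 Pol2 IP over input (left, median and quartiles over features) and percent of features called higher (right), by the place of the ORF, or of the ORF a region is named after, counted from the end of its arm. The first place holds 22.6% of ORFs and 31.8% of regions called, against 0.880% and 1.58% beyond place 40.

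Of 8 tested telomere features 2 rose (25%, against 2.81% of all features), and the list's median difference was 0.49. TEL15R-1 stood at 0.70, 0.40, -0.32 and 0.16 on the wild type arrays and at 0.88 to 2.48 with a median of 2.13 on 5 delete-labelled arrays, without overlap. The difference was 2.84-fold (SE 0.18 on the log2 scale, limma adjusted p = 0.00225). TEL6R rose by 0.93 ± 0.14 (SE, adjusted p = 0.00403), from between -0.34 and 0.06 to between 0.34 and 1.27. The other 4 TEL15R features that were tested did not pass: TEL15R-4 had a difference of -0.22 ± 0.17 and TEL15R-6 one of 0.62 ± 0.20 (SE, limma adjusted p = 0.63 and 0.18).

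The gene families of the ends had positive median differences, and 1 gene passed. Of 12 genes with a COS symbol 1 rose (8.33%, against 2.81% of all features), with a median difference of 0.39. They are mostly a family of membrane proteins that act in protein sorting to the vacuole, and COS111, which shares the symbol, is an inner ORF. COS8 went from between -0.61 and 0.06 on 4 wild type arrays to between 0.28 and 0.56 on 4 delete-labelled arrays, a difference of 0.70 ± 0.14 (SE, limma adjusted p = 0.0228). The groups were separate, but with array 136 as labelled its adjusted p was 0.42, and without any one of 6 arrays it was 0.0667 to 0.0909. None of 23 PAU genes, for cell wall mannoproteins, passed in limma, though 22 differences were above 0, 16 had an unadjusted p under 0.05 and the median was 0.44. PAU14 (0.68 ± 0.23) and PAU17 (0.68 ± 0.18) had the largest differences (SE, limma adjusted p = 0.22 and 0.071). PAU17 is an inner ORF, at place 43 from its arm end. All 7 YRF1 genes, which encode the helicase of the Y′ elements, had differences of 0.20 to 0.46, and none passed, with 2 at an unadjusted p under 0.05. The copies are alike in sequence, so a spot can report on several of them.

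The mating type genes had the lowest Pol2 level of the lists in wild type cells, with a median of -1.05, and were at -0.56 on the delete-labelled arrays. The 6 features had differences of 0.34 to 0.67, of which none passed in limma and 4 had an unadjusted p under 0.05. MATALPHA2 stood at -1.59, -1.03, -1.46 and -1.18 on wild type arrays and at -0.93 to -0.17 on 5 delete-labelled arrays. Its groups did not overlap, and the difference was 0.67 ± 0.19 (SE, limma adjusted p = 0.11). With array 136 as labelled it was -0.04. HMRA2 differed by 0.53 ± 0.22 (SE, limma adjusted p = 0.33). The active and silent copies share sequence, so the spots of one can report on the other.

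LTRs are the terminal repeats of Ty retrotransposons, which in yeast often lie close to tRNA genes. Of 161 LTR and Ty features 10 rose (6.21%) with a median difference of 0.20, and of 236 regions named after them 21 rose (8.90%) with a median of 0.22. The share over all features was 2.81%. Whether a spot also reports on other copies of its repeat was not tested. On single arrays the regions were separate, at -0.46 to -0.26 in wild type and -0.11 to -0.01 on the delete-labelled arrays, while the elements overlapped. YERWOMEGA2 stood at 0.54, -0.10, -0.16 and 0.23 in wild type and at 1.04 to 2.21 with a median of 1.60 on the delete-labelled arrays. The difference was 1.49 ± 0.18 (SE, limma adjusted p = 0.00144), with no overlap. The region IYERWOMEGA2-0 rose by 1.66 ± 0.21 (SE, adjusted p = 0.00327) and YALCDELTA2 by 1.04 ± 0.16 (SE, adjusted p = 0.00517). YCLWOMEGA1 rose by 0.91 ± 0.15 (SE, adjusted p = 0.00871), and by 0.67 without passing (0.20) with array 136 as labelled, and the regions IYLRWDELTA6-A and IYBLWTAU1 by 1.07 ± 0.18 and 1.01 ± 0.15 (SE, adjusted p = 0.00865 and 0.00425). IYLRWDELTA6-A did not pass without array 230 (0.0932).

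Away from the arm ends, 55 of 5755 ORFs (0.956%) and 81 of 5054 regions (1.60%) rose, both under the 2.81% of all features. Of 50 such ORFs with a place in the reference order 19 lay next to a tRNA gene, and 22 lay 11 or more places away. TMA23, a nucleolar protein of ribosome assembly, had the largest difference of any inner ORF. It stood at -0.28, -0.12 and 0.24 on 3 wild type arrays and at 1.27 to 1.89 with a median of 1.64 on 5 delete-labelled arrays. The groups did not overlap and the difference was 1.67 ± 0.20 (SE, n = 3 and 5), or 3.19-fold, with limma's adjusted p = 0.00225. TMA23 is 3 places from the nearest tRNA gene.

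Some inner ORFs rose beside a called neighbour. PHO87, a phosphate transporter, and RBK1, a ribokinase, have adjoining systematic names and rose by 1.25 ± 0.13 and 0.999 (SE for the first, limma adjusted p = 0.00115 and 0.0188). PHO87 went from between 0.17 and 0.31 on 3 wild type arrays to between 1.31 and 1.58 on all 6 delete-labelled arrays. LSM3, of the ring that binds U6 RNA, rose by 1.22 ± 0.14 and MRPL4, a protein of the mitochondrial ribosome, by 0.97 ± 0.15 (SE, adjusted p = 0.00137 and 0.00414). PFA3, a palmitoyltransferase, rose by 1.21 ± 0.16 (SE, adjusted p = 0.00225). RBK1 did not pass without array 039 (0.085), 086 (0.0526), 230 (0.16) or 040 (0.052). These genes were chosen after their values were seen, and 13 of the 55 ORFs had a called region of the same name.

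Among 44 tested snRNA and snoRNA genes 1 rose, a share of 2.27% that is under the 2.81% of all features. It was SNR33, a guide of rRNA modification. It stood at -0.17 to 0.02 in wild type and at 0.33 to 0.92 on the 6 delete-labelled arrays, a difference of 0.76 ± 0.13 (SE, limma adjusted p = 0.00640) without overlap. SNR53 differed by 0.51 ± 0.35 (SE, adjusted p = 0.59).

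The 5 lower features were 4 regions and 1 ORF. YCL026C stood at 0.42, 0.49, 0.64 and 0.45 on the wild type arrays and at -0.24 to 0.12 on the delete-labelled arrays, a difference of -0.58 ± 0.12 (SE, limma adjusted p = 0.0217) without overlap. IYCL047C also had separate groups, at -0.53 ± 0.13 (SE, adjusted p = 0.0485). IYOL155C-1 (-1.11), IYPR094W (-0.90) and IYPL138C (-0.71) had overlapping groups. IYPR094W was split by dye orientation in both groups. On the forward arrays it was at -0.49 and -0.98 in wild type (039 and 086) and at -1.73 and -1.13 on delete-labelled arrays 137 and 239. On the arrays counted as dye-swapped it was at 1.85 and 2.21 in wild type (136 and 230) and at 0.78 and 1.095 on delete-labelled arrays 183 and 240. None of the 5 passed with array 136 as labelled, without array 039 or without array 230, and YCL026C was at -0.25 with array 136 as labelled.

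The 19 tested genes of glycolysis and fermentation were enriched for Pol2 in both genotypes. They were at a median of 0.73 in wild type and 0.77 on the delete-labelled arrays. None passed in limma, 2 had an unadjusted p under 0.05 and the median difference was -0.01. That median depended on the arrays used. It was 0.13 on the forward arrays (18 genes), -0.25 on the dye-swapped arrays (13 genes) and 0.24 with array 136 as labelled. TDH3, a glyceraldehyde-3-phosphate dehydrogenase, was at 1.28 and 1.18, with a difference of -0.10 ± 0.20 (SE, limma adjusted p = 0.88). PDC5 (-0.44 ± 0.19) and HXK1 (0.30 ± 0.13) had the largest differences of the list (SE, adjusted p = 0.33 and 0.32).

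No call was made among 128 ribosomal protein genes (median difference -0.04, 5 at an unadjusted p under 0.05), 17 translation factor genes (-0.03, 2) or 9 cell surface protein genes (0.10, 2). The same held for 12 chaperone genes (-0.15, 0), 10 histone genes (-0.17, 0), 7 galactose genes (-0.32, 1), 7 hexose transporter genes (-0.27, 0) and 40 genes of meiosis and sporulation (0.03, 8). Over all features 2.81% were higher, so the smaller lists could hold none at that share. The largest differences in these lists, none past the threshold, included TIF5 (-0.59 ± 0.16), RPS14A (-1.02 ± 0.42), SED1 (0.67 ± 0.20), GAL3 (-0.62 ± 0.30) and NDT80 (0.61 ± 0.15), all with SE and limma adjusted p from 0.065 to 0.41. Without array 086 RPS14A was at -0.38 and GAL3 at -0.33. With array 136 as labelled RPS14A was at -0.45 and TIF5 at -0.09.

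Centromeres held no call, beside 2.81% higher among all features, a share at which a list this small can hold none. The 15 tested centromeres were at a median of 0.24 in wild type and 0.21 on the delete-labelled arrays, with differences from -0.35 to 0.28 and 1 at an unadjusted p under 0.05 (limma). The 15 regions named after them had a median difference of 0.09, with none at an unadjusted p under 0.05. Mitochondrial DNA, copied by another polymerase, had a median difference of -0.03 over 77 features, with none called and 3 at an unadjusted p under 0.05. None of 19 introns passed, with 1 at an unadjusted p under 0.05.

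POL2, RRM3 and the fork genes listed here did not pass. POL2 stood at 0.12 in wild type and -0.05 on the delete-labelled arrays (difference -0.16 ± 0.12 SE, limma adjusted p = 0.60). None of 7 genes of DNA polymerase epsilon and Rrm3 partners (median difference -0.07, none at an unadjusted p under 0.05) and none of 9 checkpoint and fork protection genes (-0.02, 1) passed in limma. The ratio at RRM3 differed by 0.32 ± 0.35 (SE, adjusted p = 0.75). It had no value on array 040. On the other delete-labelled arrays except 239 its input lay at percentiles 1.67 to 12.1 of spots. The ratio there rests on a weak input signal and cannot be read as Pol2 occupancy.

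Each list was also read with the arrays in doubt turned or left out. For tRNA genes the calls were 30 of 41 with array 136 as labelled, 31 of 40 without array 239 and 23 of 41 without array 086. They were 20 of 41 without array 039 and 23 of 42 without array 230. The median difference was 0.90 with array 136 as labelled. For regions named after tRNA genes the calls were 37, 53 and 35, for arm-end ORFs 21, 26 and 15, and for arm-end regions 25, 39 and 29. Without array 039 these counts were 27, 19 and 24, and without array 230 they were 44, 15 and 23. Inner ORFs fell from 55 calls to 25 and inner regions from 81 to 30 without array 039, to 27 and 39 without array 086, to 29 and 45 without array 230, and to 36 and 43 with array 136 as labelled. LTR and Ty elements had 5 to 8 calls and regions named after them 7 to 15 under the same 5 changes. Without arrays 136, 182 and 239, a setting added after the data were seen, there were 26 calls among tRNA genes, 50 among the regions named after them, 21 among arm-end ORFs and 32 among arm-end regions. Adding the 5 Rrm3 IP arrays to the fit, to share one estimate of spread, left 69 features higher, of which 8 were tRNA genes and 18 were arm-end regions.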

How the data were processed

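The members and the feature lists were chosen with earlier results of these data known. The authors deposited log2 IP over input, median normalised per array per the series' design text; rows matched the mean of the scanner files' log2 ratio over unmarked spots within 0.001 for most values, with the sign turned on dye swaps and array 136. The deposited scanner files hold the spot intensity of both dyes, per the file headers, with bad-spot marks and failed-PCR marks as other codes. No source used here gives the scanner software or the genome build, so no coordinates are printed. Each array's median was set to 0, and 12465 of 13059 features with at least 3 values in each group were fitted with group and dye in limma 3.58.1 (R 4.3.3; lmFit, eBayes, prior degrees of freedom 5.01, Benjamini-Hochberg, threshold 0.05). SE is the fit's standard error. The number of arrays limits precision. The fit was checked on simulated data. ORF names matched the RefSeq R64 table at 5677 of 6203. Places from an arm end follow the numbers of systematic names. Features were named by rule: RRM3 and POL2, the 10 largest called differences each way, and up to 3 of each list; others are marked in the text. Array 231, whose labels conflict on the deletion, was left out. Fork orientation and the side of a region were not analysed here.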

Additional observations from a re-analysis of the deposited data

Results flagged for a closer look

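In 172 groups of 4 to 6 arrays checked for a single array far from the rest, 9 were found, where chance gives about 1 in 20. Array 182 was high for DNA polymerase epsilon and Rrm3 partners (list median 1.16, others -0.08 to 0.04), low for glycolysis and fermentation (0.36, others 0.61 to 0.75) and high at YALCDELTA2 (1.37, others 0.49 to 0.76). On array 182 54.0% of spots were marked bad. The first of these medians lies between RRM3, the gene labelled as deleted, at 0.96 and DPB4 at 1.36, so it does not show that the whole list was raised. Array 183 was low for snRNA and snoRNA genes (0.0795, others 0.27 to 0.38), array 040 at the intron INTYHR010W (-0.10, others 0.30 to 0.52) and array 137 at the histone gene HTB1, YDR224C (-2.23, others -0.15 to 0.33). Among wild type arrays, 136 was low for regions named after LTRs and Ty elements (-0.46, others -0.29 to -0.26), 230 for translation factors (0.16, others 0.26 to 0.26) and 086 for checkpoint and fork protection genes (-0.016, others 0.17 to 0.19).

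The difference between genotypes depended on dye orientation at 1 feature (0.00802% of those tested, limma adjusted p = 0.0431), and 689 had an unadjusted p under 0.05. It was the region ITR(ACG)D-0, with a forward minus swapped difference of 3.38 ± 0.36 (SE), where the single dye-swapped wild type value, 3.17 on array 230, lay above the 0.03 to 0.19 of the forward wild type arrays and the 0.07 to 0.93 of the delete-labelled arrays. Of the 350 higher features 13 had an unadjusted p under 0.05 for this dependence.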

How the results depend on the processing

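No paired analysis was possible because the array numbers are not shared between the groups. The count of higher features, 350, became 219 without the dye term, 212 with array 136 as labelled, 82 on the forward arrays alone, 0 on the dye-swapped arrays alone (limma on 6541 features with 2 or more arrays a group, 760 at an unadjusted p under 0.05), 69 with all 15 arrays and 174 among the 3547 features measured on all 10 arrays. Leaving out 1 array at a time gave 165 to 353. The count of lower features, 5, became 9 without centring, 19 without background subtraction, 11 with normexp, 8 without dim spots, 1 without the dye term, 0 with array 136 as labelled, 2 with it in the forward dye term, 2 on forward arrays, 0 on swapped arrays, 2 without arrays 136 and 182, 0 with all 15 arrays, and 1 to 10 when 1 array was left out. The median difference of tRNA genes, 0.91, became 0.84 without centring and 0.84 on swapped arrays. That of regions named after tRNA genes, 0.48, became 0.42 without centring, 0.38 without background subtraction, 0.56 on forward arrays and 0.57 on features measured on all arrays. The sign turned for chaperones (0.13), PDC5 or YLR134W (0.0524), TEF2 or YBR118W (0.42), MATALPHA2 or YCR039C (-0.0427) and MRC1 or YCL061C (0.22) with array 136 as labelled, for hexose transporters (0.0168) and MRC1 (0.0648) on forward arrays, for ICEN9 with loess (0.0134), on swapped arrays (0.36) and without array 039 (0.36; -0.58 to 0.36 when 1 array was left out), and for INTYGL033W without the dye term (0.0108), none of which passed. List medians nearer to 0 turned as well. With array 136 as labelled, glycolysis and fermentation became 0.24, translation factors 0.11, ribosomal protein genes 0.02 and checkpoint and fork protection genes 0.19. On forward arrays the same lists were at 0.13, 0.09, 0.04 and 0.08. The cause was not tested. In each setting every one of the 350 features that could be tested kept a positive difference. The settings reuse all or part of the arrays that chose the 350, so this was largely fixed in advance and is not separate evidence.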

Other observations

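The Rrm3 helicase itself was mapped on 5 other arrays, with Rrm3-13MYC in place of tagged Pol2. At the 34 tRNA genes called higher, the median log2 Rrm3 IP over input was 0.52, 0.58, 0.36 and 0.48 on arrays 041, 088, 184 and 185 and -0.38 on array 031. The 69 called regions named after tRNA genes were at 0.36, 0.33, 0.27 and 0.18 on the same 4 arrays and at -0.40 on array 031. The 45 called arm-end regions were below 0 on all 5 Rrm3 arrays, from -0.36 to -0.18. The mean Rrm3 IP value was above 0 at 29 of the 34 tRNA genes, 51 of the 69 regions named after them and 9 of the 45 arm-end regions, beside 6061 of all 12465 features. A positive Rrm3 IP value was not particular to tRNA genes. The median of the mean Rrm3 IP was 0.33 over all tested tRNA genes. It was higher in some lists without a call: glycolysis and fermentation 0.84, mitochondrial DNA 0.59, centromeres 0.54 and ribosomal protein genes 0.51. Other lists without a call were lower, such as galactose genes (-0.305) and meiosis and sporulation (-0.23). These are descriptions and were not tested.

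Array 231 has a title without the deletion and a description with it, and was put in no group. Its median over 41 tRNA genes was -0.17, beside -0.11 to 0.03 on the wild type arrays and 0.80 to 0.97 on the delete-labelled arrays. Its median over 235 regions named after tRNA genes was -0.18, beside -0.05 to 0.01 and 0.42 to 0.55. Its arm-end regions were at 0.11, beside -0.44 to -0.03 and -0.08 to 0.09.

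The tRNA gene spots came from 2 source plates, 36 of the tested ones from plate 1 and 5 from plate 18. The features of those plates that are not named for tRNA genes had median differences of 0.14 and -0.00, beside 0.90 and 0.91 for the tRNA gene features. On plate 1, 16 of 296 such features were higher (5.41%), and on plate 18 it was 9 of 338 (2.66%). The share over all features was 2.81%, so plate 1 was above it without its tRNA features. The reason was not tested.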
